A study of Homo sapiens with 6 samples.

Results

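The genes described are 37 genes of the G1/S transition and of DNA replication, listed by symbol and looked up in the deposited table, where all 37 of 37 were found among 11081 gene rows. They were measured by RNA-seq in T24, a cell line from a human bladder carcinoma. Cells of the control group carried a lentiviral short hairpin named shControl and are labelled WT, those of the second group carried a hairpin named shBLACAT3 and are labelled as a knockdown of the long noncoding RNA BLACAT3. Both groups had been through the same infection and puromycin selection, both are described as stably transfected strains, and each had 3 libraries, 6 in all. The labels give 1 hairpin name per group, so an effect of the hairpin sequence and one of BLACAT3 cannot be told apart, and the level of BLACAT3 itself was not analysed here. Whether the numbered replicates were grown separately is not stated, so p-values reflect the spread of these 6 libraries, possibly a technical one.

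Before a cell copies its DNA, the MCM helicase ring is loaded at origins by CDC6 and CDT1 and is later switched on by CDC45 and the GINS complex. The clamp loader RFC places the PCNA clamp on the DNA, the replicative polymerases copy the strands, and ribonucleotide reductase and thymidylate synthase keep up the supply of DNA precursors. Most of these genes are transcribed in a wave at the G1/S boundary under E2F factors, which the RB protein holds back until G1 cyclin kinases phosphorylate it, and in the E2F and RB pathway bladder carcinomas often carry lesions. In RNA from a whole culture, a larger share of cells in S phase and more RNA per cell cannot be told apart.

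The E2F recognition word is the sequence feature these genes are best known to share, so their promoters are shown first. RefSeq promoter windows of GRCh38.p14, each from 250 bases before to 50 bases after a transcription start, were found by symbol for 33 of the 37 genes (42 windows). The missing entries are MCM4, MCM5, GINS4 and CCNE2. The stretches below run 5′ to 3′ on the strand of the gene, from 160 bases before the start to 5 bases past it. They belong to the 4 members that passed the test (GINS2, CLSPN, TYMS and RFC4) and to E2F1 and MCM6, shown as examples of members with more than 1 E2F word. Capitals mark an E2F word, which is TTTCCCGC, TTTGGCGC, TTTCGCGC or TTTGCCGC on either strand.
GINS2: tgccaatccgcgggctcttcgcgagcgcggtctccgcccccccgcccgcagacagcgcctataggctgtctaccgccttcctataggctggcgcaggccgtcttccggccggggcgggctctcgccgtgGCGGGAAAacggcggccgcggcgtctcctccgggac
CLSPN: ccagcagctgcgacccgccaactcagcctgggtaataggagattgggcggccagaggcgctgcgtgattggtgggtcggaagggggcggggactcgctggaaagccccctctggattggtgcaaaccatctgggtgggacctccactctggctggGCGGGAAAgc
TYMS: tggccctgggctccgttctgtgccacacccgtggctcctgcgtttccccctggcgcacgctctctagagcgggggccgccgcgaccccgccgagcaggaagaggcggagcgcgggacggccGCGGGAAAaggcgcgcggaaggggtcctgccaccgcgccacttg
RFC4: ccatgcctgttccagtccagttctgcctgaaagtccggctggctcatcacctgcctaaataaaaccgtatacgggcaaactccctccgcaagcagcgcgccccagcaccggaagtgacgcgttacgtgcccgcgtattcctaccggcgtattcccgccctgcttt
E2F1: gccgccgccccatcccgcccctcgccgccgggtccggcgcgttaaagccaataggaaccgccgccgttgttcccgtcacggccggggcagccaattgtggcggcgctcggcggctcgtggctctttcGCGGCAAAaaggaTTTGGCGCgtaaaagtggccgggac
MCM6: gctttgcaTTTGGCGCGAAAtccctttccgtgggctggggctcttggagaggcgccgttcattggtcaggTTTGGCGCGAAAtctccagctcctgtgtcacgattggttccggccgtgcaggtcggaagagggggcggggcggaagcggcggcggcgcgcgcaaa
GINS2 lies at chr16:85688950-85689114 (minus strand), CLSPN at chr1:35769974-35770138 (minus), TYMS at chr18:657493-657657 (plus), RFC4 at chr3:186806478-186806642 (minus), E2F1 at chr20:33686381-33686545 (minus) and MCM6 at chr2:135876439-135876603 (minus). The word began 31 bases before the start in GINS2, 5 before it in CLSPN and 39 before it in TYMS. RFC4 held none in its whole window. MCM6 held 4 words in 2 overlapping pairs, since TTTGGCGC and the reverse complement of TTTCGCGC share letters there.

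At least 1 E2F word was present in the windows of 20 of the 33 members (60.6%), against 600 of 8223 tested genes with a window (7.3%) and 3.99% of all 27305 genes in the promoter table. All 4 MCM ring genes with a window held it, as did all 3 GINS genes, CDC6, CDT1, PCNA, E2F1, E2F2, CLSPN and DTL, where a gene with several windows counts once if any window holds the word. Of the clamp loader genes only RFC3 held it (1 of 4), and CDC45, MCM10, FEN1, RRM1, RRM2 and CCNE1 held none. Members with and without the word had close medians. The median log2 fold change was 0.16 in the 20 members with it and 0.15 in the 13 without. CCAAT, the NF-Y word, read on both strands, was in at least 1 window of 60.6% of the 33 members and of 44.0% of the 8223 tested genes. A match describes letters and not binding.

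Levels are given as FPKM, fragments per kilobase of transcript and scaled to the fragments of the library, so they can be set side by side between genes. In shControl cells PCNA stood highest at 226 ± 7.04 FPKM (SD, n = 3), followed by TYMS at 74.6 ± 2.90 and RRM1 at 62.1 ± 2.60. E2F2 stood lowest at 1.66 ± 0.06 FPKM, below POLE at 3.24 ± 0.07 and POLD1 at 3.38 ± 0.47, and the last pair did not differ beyond its spread. The median member stood above 81.2% of all tested genes. Depth is unknown, since FPKM values hold no counts.

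**Figure D1:**
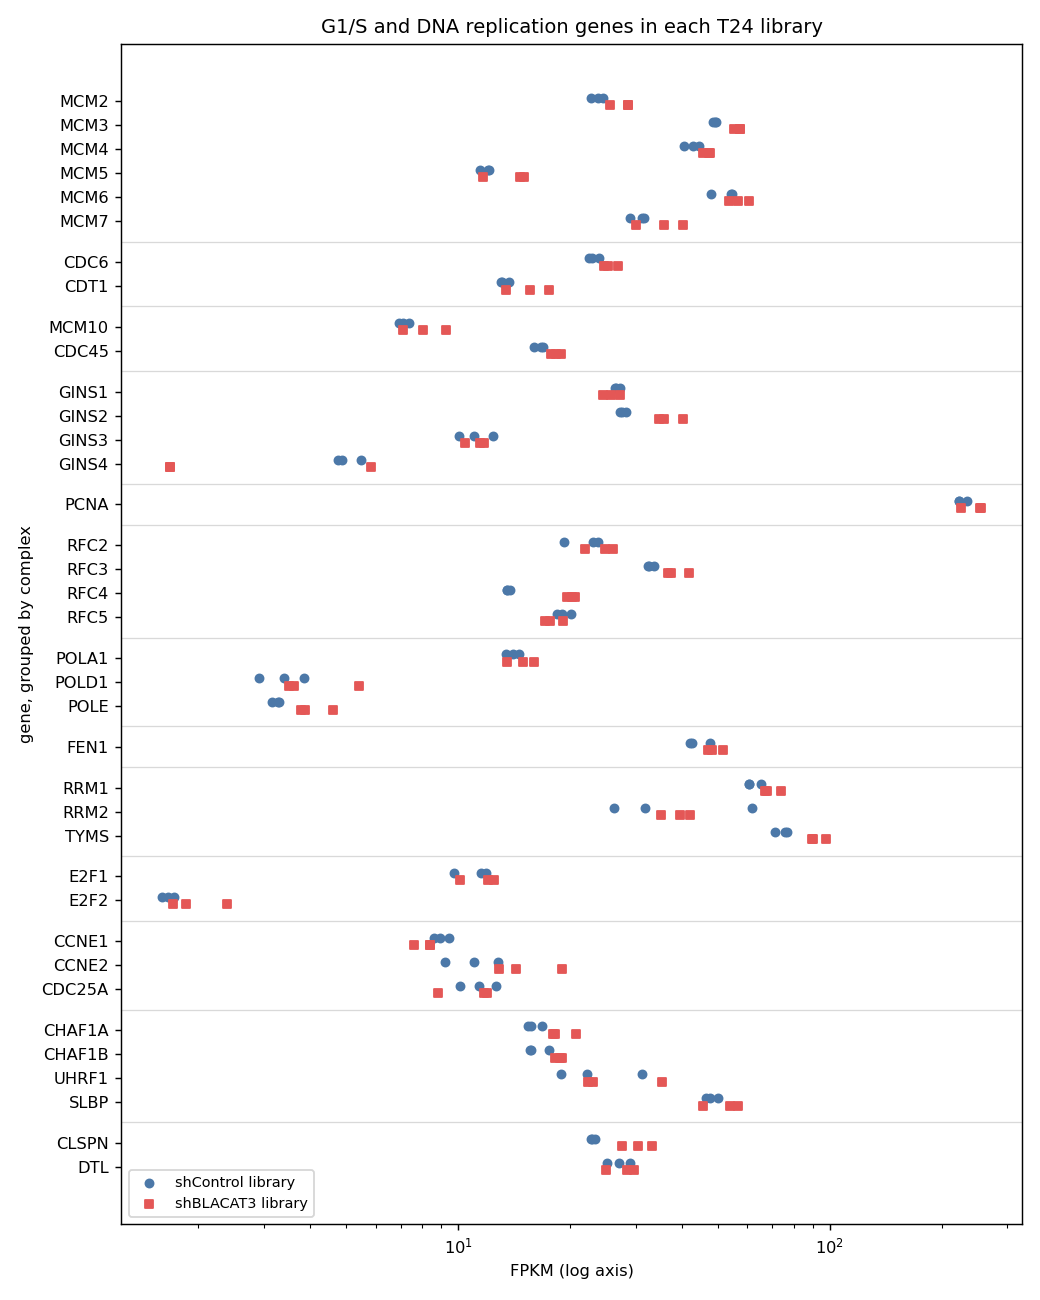
FPKM on a log axis of each of the 37 genes in the 3 shControl libraries (circles) and the 3 shBLACAT3 libraries (squares), grouped by complex. Levels run from E2F2 near 1.66 FPKM to PCNA near 226 FPKM in shControl cells, and most members shift by little, while GINS4 and RRM2 each have libraries far apart.

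Most of the replication genes were slightly higher in shBLACAT3 cells, and few by enough to pass. The mean on the log2(FPKM + 1) scale was higher for 32 of the 37 (86.5%), where 49.4% of all 10008 tested genes had a higher one. On the FPKM scale it was higher for 31 (83.8%, against 49.8%), as RRM2 changed sign between the scales. The median log2 fold change was 0.16 over the members and -0.0025 over all tested genes. Tests were run with limma on log2(FPKM + 1), with Benjamini-Hochberg adjustment over all tested genes and a threshold of 0.05. RFC4, GINS2, CLSPN and TYMS rose, which is 4 of 37 (10.8%), and 0 fell. An unadjusted limma p under 0.05 was reached by 12 members (32.4%), against 25.6% of all tested genes. Over all tested genes 2.57% rose, 6.8% fell and 9.37% passed in either direction. The members' share of rises lay above the background of rises with all libraries, while their share of calls in either direction lay close to its background. Without shBLACAT3 replicate 3 the background of rises was 5.83%, and 10.8% of the members rose. Without any 1 of the shControl libraries the background was 0.849% to 0.989% and the members' share 2.7%. All 3 shBLACAT3 libraries lay above all 3 shControl libraries in 15 members (40.5%), where 14.1% of all tested genes did so. CCNE1 lay below in all 3 (2.7% of the members, against 18.6%).

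The calls were fragile with 3 libraries per group. RFC4 kept its call whichever library was left out, with adjusted p from 0.0068 to 0.020 in limma. Without any 1 of the shControl libraries 1 member, RFC4, was called. The same held without shBLACAT3 replicate 1 (2.7%, where 1.1% of all tested genes rose). GINS2, RFC4 and MCM5 were called higher without shBLACAT3 replicate 2 (8.11%, where 1.95% of all tested genes rose). Without shBLACAT3 replicate 3 the 4 calls held and GINS4 was called lower (2.7%, where 7.31% of all tested genes fell). The median over the members moved only between 0.15 and 0.16 in these 6 fits.

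The rise in the median was present in each library. The median difference of the members from their own mean over the 6 libraries, on the log2(FPKM + 1) scale, was -0.08, -0.11 and -0.08 in shControl replicates 1, 2 and 3. In shBLACAT3 replicates 1, 2 and 3 it was 0.06, 0.07 and 0.07. The groups did not overlap in this median, and the shBLACAT3 libraries stood close together. Over all tested genes the same median lay between -0.02 and 0.02 in every library, so all genes together showed no such difference between the groups.

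**Figure D2:**
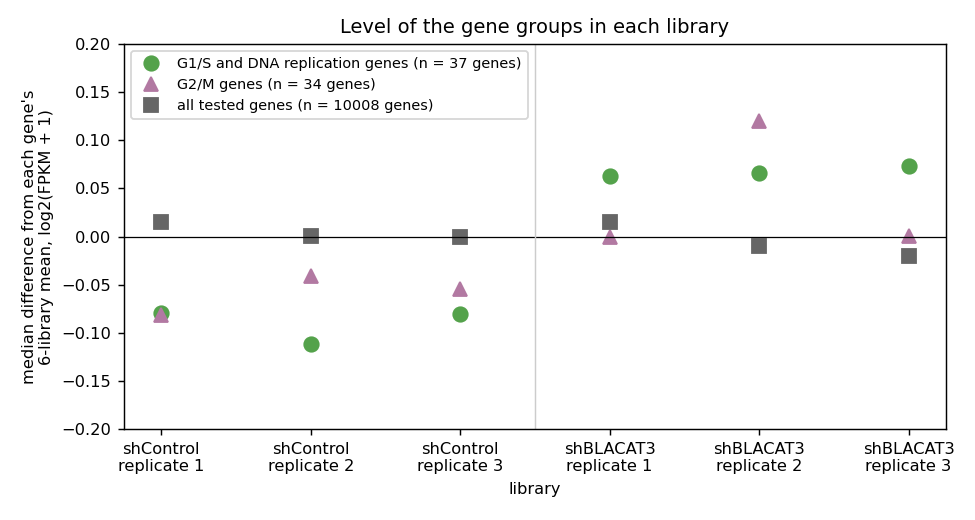
Median difference from each gene's mean over the 6 libraries, log2(FPKM + 1), for the 37 replication genes (circles), 34 G2/M genes (triangles) and all 10008 tested genes (squares), in each library. The replication genes lie between -0.11 and -0.08 in the shControl and between 0.06 and 0.07 in the shBLACAT3 libraries, while all genes stay within 0.02 of 0.

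Among the helicase genes, the MCM ring stood a little higher as a whole. The summed level of the 6 ring subunits was 214, 201 and 215 FPKM in the shControl libraries and 236, 231 and 245 FPKM in the shBLACAT3 libraries. No library of one group reached into the other. All 6 subunits had a higher mean, with log2 fold changes from 0.12 (MCM6) to 0.21 (MCM2), and 0 passed. MCM3 came nearest, at 49.1, 48.5 and 49.4 FPKM in shControl and 57.3, 55.2 and 57.3 FPKM in shBLACAT3 cells. Its groups lay well apart (log2 fold change 0.20, SE 0.05), and its adjusted p in limma was 0.052. MCM2 and MCM4 also did not overlap between the groups, while MCM5, MCM6 and MCM7 did, and shBLACAT3 replicate 2 was the lowest of its group for MCM5 (11.6 FPKM) and MCM7 (30.0 FPKM). In the make-up of the ring RNA, no subunit's mean share differed between the groups by more than the SD of the more variable group. MCM6 gave 24.9 ± 0.89% of the summed FPKM in shControl and 24.04 ± 1.98% in shBLACAT3 cells (SD, n = 3), and MCM5, the scarcest, 5.65 ± 0.04% and 5.81 ± 0.69%.

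The loading and activation factors showed shifts of the same size and 0 calls. CDC6, the ATPase that loads the ring, read 22.9, 22.5 and 23.9 FPKM in shControl and 24.8, 25.2 and 26.9 FPKM in shBLACAT3 libraries. These did not overlap, at a log2 fold change of 0.14 (SE 0.06, limma adjusted p 0.20). CDT1, its partner, had a fold change of 0.21 and MCM10, which helps the helicase to start, one of 0.16 on that scale, and both overlapped between groups. CDC45, a component of the active helicase, read 16.7, 16.0 and 17.0 FPKM against 17.8, 18.3 and 18.9 FPKM (log2 fold change 0.14). In CDC45 too the groups were apart, and it did not pass (limma adjusted p 0.20).

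The GINS complex, which bridges CDC45 and the ring, did not move as a unit. GINS2 read 27.6, 27.3 and 28.2 FPKM in shControl libraries and 35.9, 34.7 and 40.3 FPKM in shBLACAT3 libraries. It rose with a log2 fold change of 0.40 (SE 0.07, limma adjusted p 0.018), and the call was lost without any 1 of shControl replicates 1, 2 and 3 (0.077, 0.075 and 0.064) or shBLACAT3 replicate 1 (0.051). Its partners did not follow. GINS1 had a log2 fold change of -0.05 (95% interval -0.19 to 0.10) and GINS3 one of 0.0095 (-0.21 to 0.23). Thus GINS2 gave 39.9, 39.2 and 38.4% of the summed GINS level in shControl libraries and 48.6, 48.0 and 47.3% in shBLACAT3 libraries, with no overlap. GINS2 shares exonic sequence with GSE1 on the opposite strand, which stood at 2.08 ± 0.50 and 1.55 ± 0.12 FPKM (SD, n = 3) and did not pass.

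GINS4 was the member whose shBLACAT3 libraries lay furthest apart. It read 4.88, 4.74 and 5.47 FPKM in shControl libraries, 1.67 and 1.68 FPKM in shBLACAT3 replicates 1 and 2, and 5.81 FPKM in shBLACAT3 replicate 3. Replicate 3 lay above every shControl library and the other pair far below. The log2 fold change was -0.72 (95% interval -1.57 to 0.13, limma adjusted p 0.26), and without shBLACAT3 replicate 3 it was -1.17 and passed (0.0024). The highest of the 3 shBLACAT3 values was 3.48 times the lowest, and 2.38% of all tested genes reached a ratio of 3 in that group. The source of this split was not tested.

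**Figure D3:**
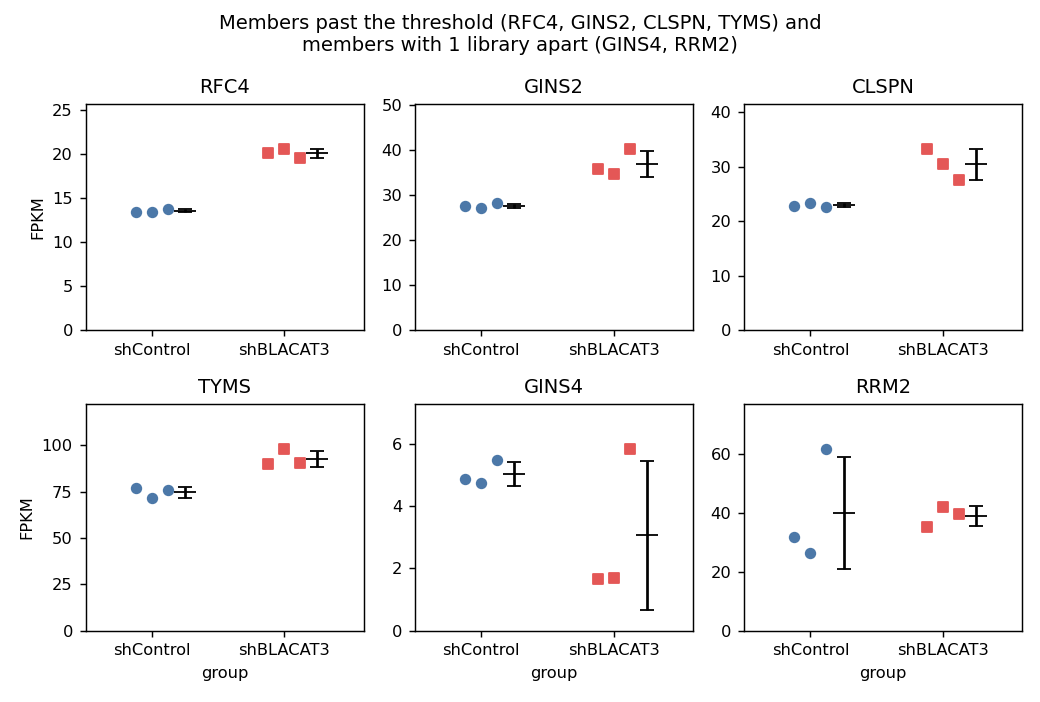
FPKM of RFC4, GINS2, CLSPN, TYMS, GINS4 and RRM2 in each library (circles shControl, squares shBLACAT3), with the mean and SD of each group beside the points (n = 3). The first 4 genes are higher in every shBLACAT3 library, while GINS4 has 1 shBLACAT3 library at 5.81 FPKM and RRM2 has 1 shControl library at 61.6 FPKM apart from the rest.

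The clamp loader held the firmest change. RFC4, a small subunit of the loader, read 13.5, 13.5 and 13.8 FPKM in shControl libraries and 20.2, 20.6 and 19.6 FPKM in shBLACAT3 libraries. The values were tight in both groups and far apart, with a log2 fold change of 0.53 (SE 0.06, limma adjusted p 0.0025). RFC3 read 32.7, 33.6 and 32.3 FPKM against 36.7, 41.8 and 37.3 FPKM, again with no overlap (log2 fold change 0.22, limma adjusted p 0.097). RFC2 had a log2 fold change of 0.14 and RFC5 one of -0.09 (95% interval -0.26 to 0.07), and neither passed.

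Within the loader the balance of the RNAs shifted. RFC4 was the scarcest of the 4 measured small subunits in shControl cells, at 15.2, 15.0 and 16.4% of their summed FPKM, and reached 20.1, 19.9 and 19.8% in shBLACAT3 libraries. The share of RFC5 went the other way, from 21.4, 22.3 and 22.0% to 17.5, 18.5 and 17.3%. Its own level overlapped between the groups (19.2 ± 0.85 and 18.0 ± 1.06 FPKM, SD, n = 3), and a share also falls when other subunits rise. In shBLACAT3 cells RFC5 was thus the scarcest, and neither share overlapped between the groups. RFC4 overlaps EIF4A2, and RFC5 overlaps WSB2, both on the opposite strand. EIF4A2 did not pass (29.95 ± 0.89 and 33.4 ± 4.70 FPKM, SD, n = 3), while WSB2 rose from 16.5 ± 1.07 to 22.3 ± 1.64 FPKM, a call lost without any 1 shControl library or shBLACAT3 replicate 1. The strand setting of the authors' quantification is not given in the sources used here, and the part of these neighbours in the RFC values was not tested.

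PCNA, the sliding clamp, read 222, 222 and 235 FPKM in shControl and 226, 256 and 254 FPKM in shBLACAT3 cells. The groups overlapped, and the log2 fold change was 0.11 (95% interval -0.05 to 0.27). FEN1, the nuclease that trims Okazaki fragments, did not pass at a log2 fold change of 0.15. Pseudogenes of PCNA, FEN1, RRM2, TYMS, RFC3 and RFC5 are annotated in GENCODE 29, so their values depend on how fragments shared with such copies were assigned. FEN1, CHAF1B, RRM2 and POLD1 share exonic sequence with a coding gene on the same strand (FADS2, MORC3, AC007240.1 and AC020909.1). MCM2, MCM7, CCNE2, CHAF1A and FEN1 share some with one on the opposite strand, and the part of these neighbours was not tested.

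The 3 catalytic polymerase subunits had higher means and 0 calls. POLE, the leading strand polymerase, read 3.26, 3.29 and 3.16 FPKM in shControl libraries and 4.59, 3.77 and 3.87 FPKM in shBLACAT3 libraries. Its groups did not overlap, with a log2 fold change of 0.26 (SE 0.09, limma adjusted p 0.13), a scale that understates the change at such low levels. POLD1, of the lagging strand polymerase, stood at 3.38 ± 0.47 and 4.18 ± 1.07 FPKM (SD, n = 3), where shBLACAT3 replicate 1 alone lay above all shControl libraries, at 5.41 FPKM. POLA1, the polymerase that extends primers, had a log2 fold change of 0.08 (95% interval -0.11 to 0.26).

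Of the genes of nucleotide supply, TYMS rose. This enzyme makes thymidylate and is the target of fluorouracil. It read 76.7, 71.3 and 75.8 FPKM in shControl libraries and 89.6, 97.8 and 90.3 FPKM in shBLACAT3 libraries, a log2 fold change of 0.31 (SE 0.06, limma adjusted p 0.027) in groups that did not overlap. The call was lost without any 1 library except shBLACAT3 replicate 3, with adjusted p from 0.053 to 0.11 in limma. ENOSF1, the antisense neighbour whose exons overlap TYMS, stood at 2.13 ± 0.11 and 2.50 ± 0.21 FPKM (SD, n = 3) and did not pass.

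The subunits of ribonucleotide reductase differed in how well they were measured. RRM1, the large subunit, read 65.1, 60.5 and 60.7 FPKM in shControl and 66.8, 73.7 and 67.8 FPKM in shBLACAT3 libraries, with no overlap (log2 fold change 0.16, limma adjusted p 0.18). RRM2, the small subunit made in S phase, read 31.8, 26.3 and 61.6 FPKM in shControl and 35.2, 42.0 and 39.6 FPKM in shBLACAT3 libraries. All 3 shBLACAT3 values lay between shControl replicate 3 and the other shControl libraries. Its log2 fold change was 0.06 (95% interval -0.64 to 0.75). A ratio of 2 between the highest and the lowest shControl library was reached by 4.29% of all tested genes, and RRM2 was the only member among them (2.34 times).

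The regulators of the G1/S switch did not move together. E2F1, an activator E2F, read 11.9, 9.74 and 11.5 FPKM in shControl and 12.5, 10.1 and 12.1 FPKM in shBLACAT3 libraries, so the groups overlapped (log2 fold change 0.06, 95% interval -0.20 to 0.32). E2F2, a second activator, had a log2 fold change of 0.16, with shBLACAT3 replicate 1 (2.39 FPKM) apart from the other libraries. The cyclins that activate CDK2 pointed in opposite directions. CCNE1 read 8.60, 8.96 and 9.42 FPKM against 7.61, 8.37 and 8.39 FPKM (log2 fold change -0.13, SE 0.07). CCNE2 read 11.0, 12.8 and 9.21 FPKM against 14.3, 19.0 and 12.9 FPKM (log2 fold change 0.45, SE 0.16). Neither overlapped between groups and neither passed (limma adjusted p 0.31 and 0.15). CDC25A, the phosphatase that releases CDK2, had a log2 fold change of -0.07 (95% interval -0.39 to 0.25).

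Among the chromatin factors, the CAF-1 histone chaperone subunits CHAF1A and CHAF1B were higher in every shBLACAT3 library. CHAF1A read 16.8, 15.4 and 15.7 FPKM in shControl and 20.8, 18.0 and 18.2 FPKM in shBLACAT3 libraries (log2 fold change 0.23, limma adjusted p 0.12). CHAF1B read 17.5, 15.7 and 15.6 FPKM against 18.3, 18.8 and 19.1 FPKM (log2 fold change 0.19, limma adjusted p 0.14). Both sets were disjoint, and neither passed. UHRF1, which guides DNA methylation to new strands, ranged from 18.9 to 31.2 FPKM in shControl and from 22.4 to 35.3 FPKM in shBLACAT3 libraries, too wide to show a difference of the members' usual size. SLBP, which binds the stem-loop of histone mRNA, had a log2 fold change of 0.11 (95% interval -0.10 to 0.32).

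CLSPN rose as well. It encodes claspin, the adaptor that passes the signal of stalled forks to the kinase CHK1. It read 22.8, 23.3 and 22.7 FPKM in shControl libraries and 33.3, 30.5 and 27.6 FPKM in shBLACAT3 libraries. The log2 fold change was 0.39 (SE 0.08, limma adjusted p 0.029), with no overlap, and only without shBLACAT3 replicate 3 (0.014) did the call survive the loss of a library. Without the other 5 it lay between 0.065 and 0.11. DTL, the receptor that sends CDT1 for destruction during replication, had a log2 fold change of 0.03 (95% interval -0.18 to 0.24).

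**Figure D4:**
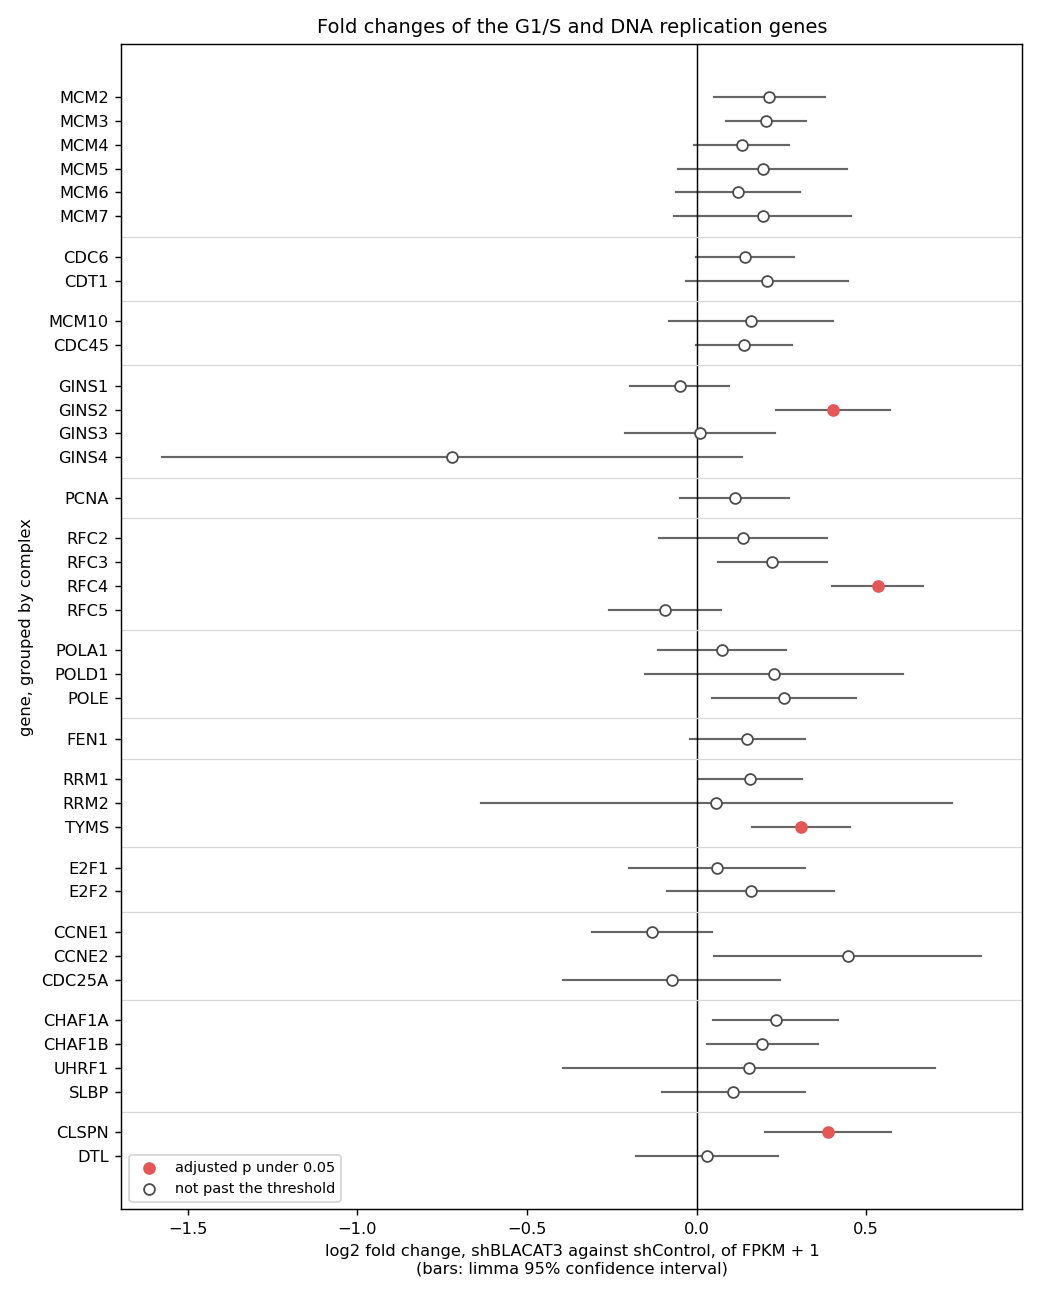
Log2 fold change of FPKM + 1, shBLACAT3 against shControl, for each of the 37 genes with limma's 95% confidence interval, filled where the adjusted p lay under 0.05. RFC4 (0.53), GINS2 (0.40), CLSPN (0.39) and TYMS (0.31) are filled, 32 points lie above 0, and GINS4, RRM2 and UHRF1 have the widest intervals.

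Other genes of the replication machinery, taken from lists written down with earlier results of these libraries in view, gave few calls. Of 16 genes of origin recognition and firing, 16 had a higher mean on the log2(FPKM + 1) scale (median log2 fold change 0.19). In limma 0 passed, and 3 (18.8%) had an unadjusted p under 0.05, against 25.6% of all tested genes. TOPBP1 and DONSON, which act at origin firing, came nearest, with log2 fold changes of 0.38 and 0.25 (limma adjusted p 0.084 and 0.078). Without shBLACAT3 replicate 3, TOPBP1 and WDHD1 were called higher (12.5%, against 5.83% of all tested genes). Of 23 further polymerase, clamp and lagging strand genes (median 0.06), 2 rose (8.7%, against 2.57% of all tested genes) and 0 fell. POLE4, an accessory subunit of the leading strand polymerase, rose from 3.23 ± 0.25 to 5.13 ± 0.64 FPKM, and DSCC1, of an alternative clamp loader, from 19.8 ± 0.91 to 27.2 ± 2.56 FPKM (SD, n = 3). The call of POLE4 was lost without any of 4 libraries and that of DSCC1 without any of 5.

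DUT moved further than any of the 37 members that rose. It encodes the enzyme that breaks down dUTP and so feeds thymidylate synthase. DUT read 16.5, 16.2 and 17.6 FPKM in shControl libraries and 29.6, 42.5 and 34.0 FPKM in shBLACAT3 libraries. It rose with a log2 fold change of 1.02 (SE 0.13, limma adjusted p 0.0052) and passed whichever library was left out. SAMHD1, which breaks down deoxynucleotides and is known to be induced by interferon, read 25.5, 24.04 and 24.4 FPKM against 18.5, 18.7 and 18.7 FPKM. It fell by 0.38 on the log2 scale (SE 0.06, limma adjusted p 0.0089), a call lost without shControl replicate 1. These were the only calls among 25 further genes of nucleotide supply (median 0.11), 4.0% in each direction. Over all tested genes 2.57% rose and 6.8% fell.

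The list of genes that gate entry into S phase holds both activators and inhibitors. Its median had the opposite sign to that of the machinery, which gives no direction for S phase entry. Of 24 tested G1 cyclins, CDKs, inhibitors, RB and E2F genes, 8 had a higher and 16 a lower mean on the log2(FPKM + 1) scale (6 and 18 on the FPKM scale). The median log2 fold change was -0.09, 0 rose and 2 fell (8.33%, against 6.8% of all tested genes). E2F7, a repressor of E2F targets, fell from 19.9 ± 1.36 to 14.1 ± 1.18 FPKM and SKP2, which targets the inhibitor p27 for destruction, from 10.3 ± 0.52 to 7.78 ± 0.42 FPKM (SD, n = 3), and both calls were lost without any 1 shControl library or shBLACAT3 replicate 1. The inhibitor gene CDKN1A read 53.1, 53.1 and 52.0 FPKM in shControl and 39.3, 28.6 and 41.9 FPKM in shBLACAT3 libraries. Those groups did not overlap, and the log2 fold change of -0.53 did not pass (limma adjusted p 0.061), though it did without shBLACAT3 replicate 2 or 3. The D cyclins pointed in opposite directions. CCND1, cyclin D1, stood at 113 ± 4.03 and 138 ± 11.5 FPKM (SD, n = 3; limma adjusted p 0.058). CCND3, cyclin D3, stood at 4.65 ± 0.68 and 2.86 ± 0.64 FPKM, with a log2 fold change of -0.56 (limma adjusted p 0.064). It was called lower without shBLACAT3 replicate 2, when 4 genes of the list fell (16.7%, against 5.19% of all tested genes). RB1 stood at 18.2 ± 0.90 and 22.5 ± 3.92 FPKM (limma adjusted p 0.21).

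Of 25 genes of the S phase checkpoint and fork protection (median 0.19), 3 rose and 0 fell. The shares of all tested genes that did so were 2.57% and 6.8%. TIMELESS, which travels with the fork beside claspin, rose from 8.95 ± 0.98 to 13.1 ± 0.53 FPKM, RAD17, a checkpoint clamp loader, from 11.3 ± 1.13 to 16.1 ± 1.93 FPKM, and EXO1, a nuclease, from 15.1 ± 0.89 to 18.6 ± 0.32 FPKM (SD, n = 3). The call of TIMELESS was lost without any of 4 libraries and that of RAD17 without any of 5. That of EXO1 was lost whichever library was left out. Of 12 histone chaperone and DNA methylation genes (median 0.17), 2 rose (16.7%, against 2.57% of all tested genes). SUPT16H, of the chaperone FACT, rose from 34.0 ± 0.95 to 48.1 ± 2.81 FPKM and HAT1, which acetylates new histones, from 20.9 ± 1.79 to 31.8 ± 4.24 FPKM (SD, n = 3). SUPT16H passed whichever library was left out, and HAT1 did not in 4 of 6 cases. Without shBLACAT3 replicate 3 the checkpoint list had 5 rises (RAD17, TIMELESS, ETAA1, BRCA1 and BLM) and the chaperone list 3, with HELLS. Rises were also more common over all tested genes in that fit, at 5.83%, against 2.57% with all libraries.

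Among 34 G2/M genes 24 had a higher mean on the log2(FPKM + 1) scale (median 0.11). In limma 1 rose (2.94%, against 2.57% of all tested genes) and 0 fell. PLK1, a mitotic kinase, was the one that rose, with a log2 fold change of 0.50, a call lost without any of 4 libraries. The count rested on shBLACAT3 replicate 3, without which 9 rose (PLK1, CDK1, TTK, TOP2A, CENPE, CENPF, KIF11, ECT2 and DLGAP5) and UBE2C fell. In that fit rises made up 26.5% of the list and 5.83% of all tested genes, against 2.57% with all libraries. MKI67, a proliferation marker, stood at 30.8 ± 1.68 and 35.0 ± 2.49 FPKM (SD, n = 3) and did not pass (log2 fold change 0.18, limma adjusted p 0.20). The per-library median of the G2/M genes was -0.08, -0.04 and -0.05 in shControl replicates 1, 2 and 3 and -0.0001, 0.12 and 0.0002 in shBLACAT3 replicates 1, 2 and 3. As for the replication genes the groups did not overlap, and the difference between the lists was not tested.

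**Figure D5:**
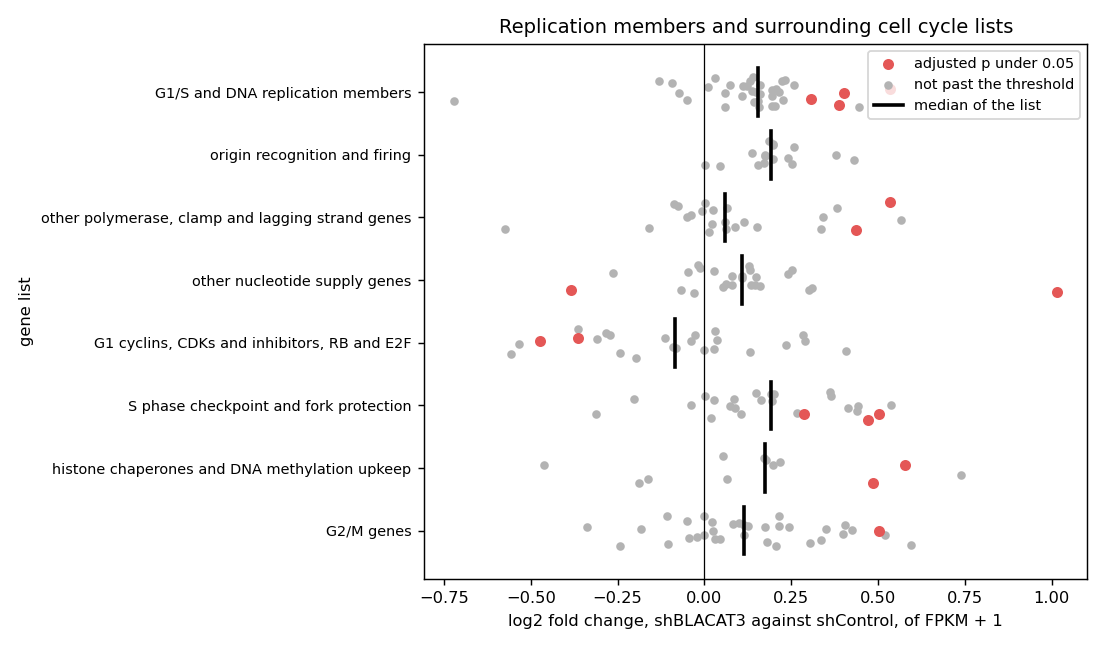
Log2 fold change of FPKM + 1, shBLACAT3 against shControl, of each tested gene in the replication members and 7 surrounding lists, with the median of each list as a bar and genes past the threshold in red. The medians lie between 0.06 and 0.19 except in the list of G1 cyclins, CDKs, inhibitors, RB and E2F, at -0.09, and DUT stands alone near 1.02.

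Markers were used to check the cell type. Of 6 epithelial markers KRT7, KRT8 and KRT18 were in the table, of 6 urothelial markers PPARG alone, of 6 leukocyte markers CD68 alone, at no more than 1.22 FPKM in any library, and of 4 endothelial markers 0. KRT8 fell from 60.7 ± 4.78 to 22.1 ± 2.41 FPKM and KRT18 from 112 ± 15.0 to 74.2 ± 5.19 FPKM (SD, n = 3), and the call of KRT18 was lost in 4 of 6 cases when 1 library was left out. KRT7 pointed the other way, at 19.97 ± 5.62 and 32.0 ± 3.45 FPKM with no overlap (limma adjusted p 0.097). The part of these keratin changes in the result was not tested. The table holds only rows whose higher group mean is at least 0.50 FPKM, and genes outside it were not analysed here. Values summed to between 211958 and 226953 FPKM per library, and 17 to 19 genes per shControl and 43 to 65 per shBLACAT3 library were listed at 0.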

How the data were processed

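RNA-seq was made from total RNA, in 6 libraries of T24 cells with a stranded kit, per the labels' protocols. The submitters' processing notes name cutadapt, HISAT2 2.1.0 and StringTie, while build, annotation and strand setting were not given in the sources used here. Per gene and library the authors deposited 1 FPKM value, with no further scaling recorded. The unit was read as FPKM because StringTie is named and the columns are neither whole numbers nor of equal sum, and the header gives no unit. Columns headed NC were read as shControl and SH as shBLACAT3. Of 11081 rows 11007 were matched to a symbol by identifier. Genes averaging 1 FPKM or more over the libraries (10008) entered limma 3.58.1 (R 4.3.3) as log2(FPKM + 1) (group as the only term, mean-variance trend, two-sided, Benjamini-Hochberg, threshold 0.05). The fit was tested on simulated data, where it called 4% of genes changed by 0.25 on the log2 scale and 42% of those changed by 0.5. The simulation gave 115 calls in all, fewer than the 938 in the data, so these shares need not carry over. A member that did not pass is thus not shown to be unchanged. The members and the surrounding lists were chosen with earlier results of these data known. All members are named. Each surrounding list gave up to 4 genes with the largest change among those past the threshold. Where none passed it gave the 2 with the smallest p. CDKN1A, CCND1, RB1, MKI67 and SAMHD1 were named besides. Members of the marker lists and neighbours that overlap GINS2, RFC4, RFC5 or TYMS were added, without the values of other overlapping neighbours. RBBP4, CCND3, KRT7 and genes called only without a library were chosen after their values were seen. Exon overlaps and pseudogenes came from GENCODE 29 and promoters from RefSeq (GRCh38.p14). Figures were drawn with matplotlib 3.10.9.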

Additional observations from a re-analysis of the deposited data

How the results depend on the processing

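The median log2 fold change of the members kept its sign and lay between 0.15 and 0.17 under all 13 other settings. Over the 37 members and those settings, 449 values kept their sign and call, 16 lost a call, 6 gained one and 10 changed sign. With all 6 libraries, the count of members that rose was 4 with pseudocount 0.1, median scaling or no trend and 5 with quantile normalization, a lower mean filter (0.1) or none. MCM3 was the gain, with adjusted p of 0.041 to 0.048. When 1 library was left out, 1 to 4 members rose and 0 to 1 fell, the 1 being GINS4, and 387 to 1315 of all genes were called, against 938. With the replicate number as a block 612 genes were called and 3 members rose: RFC4, GINS2 and CCNE2 (limma adjusted p 0.042), while TYMS (0.078) and CLSPN (0.058) did not pass. Deviations of same-numbered libraries correlated at 0.10, 0.12 and 0.09, each the highest for its number, a hint of pairing from the data. The labels do not say that replicate numbers pair the libraries, so the block was kept as an alternative setting. Lower genes made up 72.6% of all calls, 64.3% under quantile normalization, 55.7% without shBLACAT3 replicate 3 and up to 79.7% without another library (shBLACAT3 replicate 1). When 1 library was left out, signs turned for 6 members, none of which had passed. Their log2 fold changes ranged from -0.057 to 0.081 for GINS3 (below 0 without shControl replicate 1 and shBLACAT3 replicate 2 or 3) and from -0.19 to 0.41 for RRM2 (below 0 without shControl replicate 1 or 2). They ranged from -0.020 to 0.14 for E2F1 (below 0 without shControl replicate 2), -0.15 to 0.057 for CDC25A (above 0 without shBLACAT3 replicate 2), -0.049 to 0.35 for UHRF1 (below 0 without shBLACAT3 replicate 1) and -0.020 to 0.1 for DTL (below 0 without shControl replicate 1 or shBLACAT3 replicate 2). The cause was not tested.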
